A study of Mus musculus with 6 samples.

Results

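Interferon receptors and interferon-stimulated genes were examined in mature CD4 SP thymocytes that lack the histone demethylases Jmjd3 and Utx. The set was defined by name, as 4 receptor chains and 44 genes known to be induced by interferons, and a gene was measured if a row of the deposited microarray table carried its symbol alone. By this rule 42 of the 48 named genes were measured, all 4 receptor chains and 38 interferon-stimulated genes, out of 19752 genes on the arrays. Each of the 42 had 1 row. Rows that hold *Isg15*, *Ifi47*, *Igtp* or *Gbp2* name a second gene as well, and their values are given apart from the tests. *Ifi44* and *Ly6a* were not analysed here.

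RNA came from thymocytes sorted as Vα2hi CD24lo CD4 SP cells, the mature stage of the CD4 lineage in the thymus, and 6 microarrays were hybridised, 3 for each genotype. All cells of both groups carried OT-II, a T-cell antigen receptor transgene restricted by MHC class II that directs thymocytes into the CD4 lineage. In the dKO group the floxed alleles of *Kdm6b*, which encodes Jmjd3, and of *Kdm6a*, which encodes Utx, were deleted by a Cre transgene driven by the *Cd4* promoter, which acts from the CD4 CD8 double-positive (DP) stage onwards. The wild-type group had no Cre and so retained both genes, and it therefore does not control for Cre itself. The labels call the samples of a group biological replicates without saying that each came from its own mouse, so p-values here measure the spread between these samples. The labels give no age or sex. For the study as a whole, the Methods give an age range and state that mice were female unless indicated otherwise.

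Interferons signal through 2-chain receptors. Ifnar1 and Ifnar2 bind the type I interferons, Ifngr1 and Ifngr2 bind interferon-γ, and both receptors activate Janus kinases and STAT transcription factors. Type I interferon leads mainly to a complex with Stat2 and Irf9 that binds interferon-stimulated response elements (ISREs), and the response to interferon-γ runs mainly through GAS elements. The genes switched on in this way encode sensors of foreign RNA and DNA, enzymes and GTPases that restrict viruses, and feedback inhibitors. In the thymus a constant low supply of type I interferon, made largely by stromal cells, maintains a basal level of many of these genes in maturing T-cells.

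The DNA before the start sites is shown for 5 members that represent the patterns described below. *Oas3* had the deepest decrease, *Ifit1*, *Rsad2* and *Oasl2* varied widely between dKO arrays, and *Ifngr1* was the receptor chain with the deepest decrease. Sequences are from RefSeq, build GRCm38.p6, written 5′ to 3′ on the strand of the gene, up to the outermost start of the gene. Capitals mark matches to the ISRE core, searched as GAAA, any 2 bases and GAAA again, on either strand. The *Oas3* stretch is chr5:120777685-120777909 on the minus strand, that of *Ifit1* is chr19:34640639-34640888 on the plus strand, that of *Rsad2* is chr12:26456453-26456702 on the minus strand, that of *Oasl2* is chr5:114896684-114896925 on the plus strand, and that of *Ifngr1* is chr10:19591699-19591948 on the plus strand.
Oas3: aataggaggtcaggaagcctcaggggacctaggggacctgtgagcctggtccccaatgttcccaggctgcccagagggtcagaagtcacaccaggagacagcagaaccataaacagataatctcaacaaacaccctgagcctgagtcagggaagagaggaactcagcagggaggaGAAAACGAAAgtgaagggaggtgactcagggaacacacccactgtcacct
Ifit1: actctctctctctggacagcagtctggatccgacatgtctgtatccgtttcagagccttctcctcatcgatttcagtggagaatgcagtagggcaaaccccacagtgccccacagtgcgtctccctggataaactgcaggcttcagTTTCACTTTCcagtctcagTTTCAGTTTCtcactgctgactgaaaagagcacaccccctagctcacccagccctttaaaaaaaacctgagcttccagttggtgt
Rsad2: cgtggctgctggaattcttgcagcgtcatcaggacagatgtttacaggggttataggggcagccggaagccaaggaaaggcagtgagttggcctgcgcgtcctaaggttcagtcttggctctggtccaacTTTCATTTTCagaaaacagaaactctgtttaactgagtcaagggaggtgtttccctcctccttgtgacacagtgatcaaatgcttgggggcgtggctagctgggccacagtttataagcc
Oasl2: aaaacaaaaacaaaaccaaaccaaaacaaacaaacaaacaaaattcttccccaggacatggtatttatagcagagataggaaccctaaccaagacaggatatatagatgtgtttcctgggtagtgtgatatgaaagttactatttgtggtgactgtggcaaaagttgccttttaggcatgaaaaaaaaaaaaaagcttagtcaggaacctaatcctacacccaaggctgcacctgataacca
Ifngr1: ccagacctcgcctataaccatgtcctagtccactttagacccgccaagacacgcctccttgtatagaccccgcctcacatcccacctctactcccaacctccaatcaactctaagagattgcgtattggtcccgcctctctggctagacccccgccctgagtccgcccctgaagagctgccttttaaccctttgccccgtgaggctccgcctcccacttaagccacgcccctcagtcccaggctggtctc

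The match before *Oas3* begins 50 bases before the end of the printed stretch, in the orientation of the gene. *Ifit1* has 2 matches, 104 and 85 bases before the start, both on the opposite strand, and *Rsad2* has 1 on the opposite strand at 120 bases. *Ifit3*, a family member also on chromosome 19, has the same pair of sequences as *Ifit1*, TTTCACTTTC and TTTCAGTTTC. They lie 156 and 122 bases before the transcript start of the *Ifit3* window. *Oasl2* and *Ifngr1* have no match in the stretch searched.

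Windows of 300 bases, 250 before and 50 after a start, were on hand for 31 of the 42 measured members. The ISRE core was present in 14 of these 31 members (45.2%), against 1079 of 27025 genes with a window (3.99%). The GAS letters TTCNNNGAA, read on both strands, were present in 9 members (29.0%) against 2582 of all genes (9.55%). The matches are descriptions of sequence and were not tied to binding.

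On the arrays, 19 of the 42 members (45.2%) were lower in the dKO group at an adjusted p under 0.05 in limma, and 1 member, *Oasl1*, was higher. Of all genes tested, 10% were lower and 13.1% higher, or 23.1% in either direction. The 22 other members did not pass the test. The median log2 fold change of the members was -0.22, and that of all genes was 0.01. In 18 members the groups were fully separated, with dKO below wild-type, a pattern found in 16.5% of all genes, and in 2 members (*Oasl1* and *Ly6e*) they were separated the other way, found in 21.3% of all genes. In a sorted bulk sample, fewer cells with a transcript and less transcript per cell cannot be told apart.

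**Figure D1:**
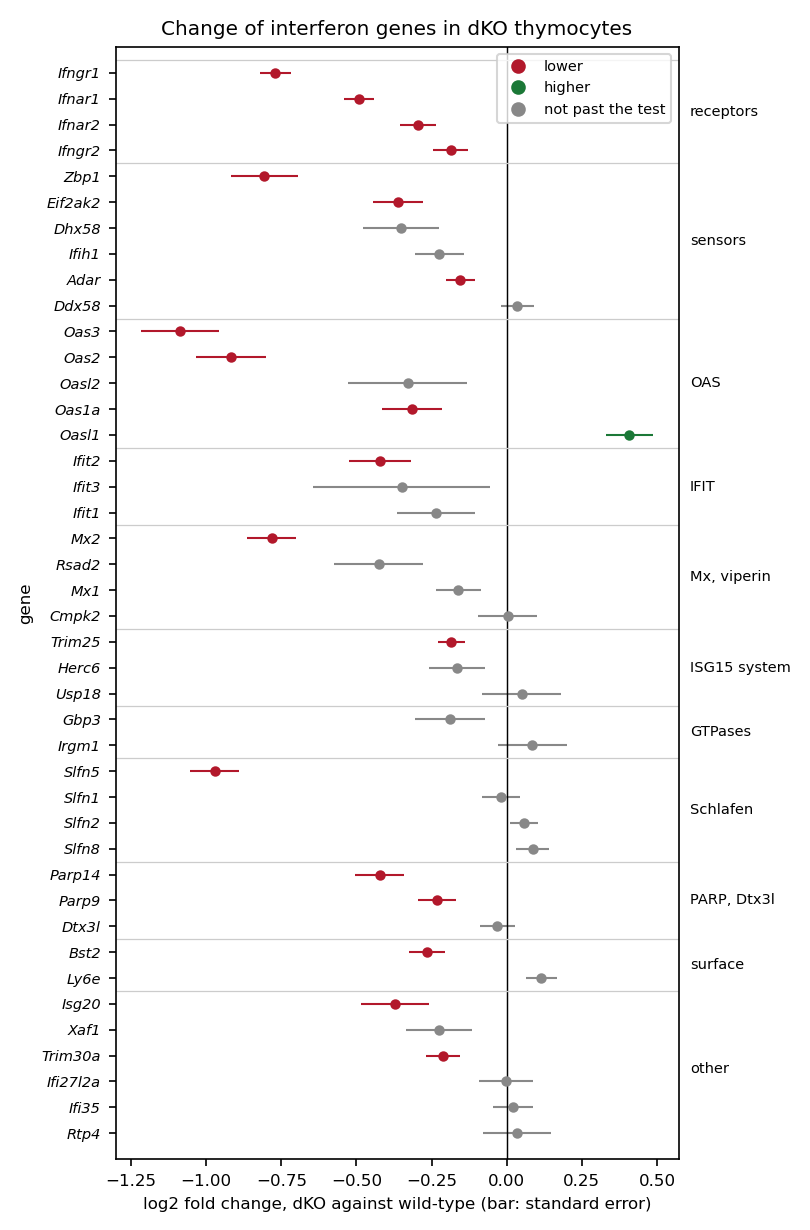
log2 fold change, dKO minus wild-type, of each of the 42 measured members with its standard error, grouped by role, with calls at an adjusted p under 0.05 in limma marked. All 4 receptor chains lie left of 0, *Oas3* is the lowest member at -1.09 and *Oasl1* the highest at 0.41.

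The dKO arrays did not form a tight group for these genes, and the array of dKO replicate 1 stood apart. It was the highest of the 3 dKO arrays in 40 of 42 members (95.2%), against 31.0% of all genes. Without it, the members called lower numbered 28, the 19 already called and 9 more, with 8.3% of all genes then called lower, and the members separated in this direction numbered 31, with 19.7% of all genes separated so. Leaving out another array removed calls instead, among all genes too. There were 11 lower members once wild-type replicate 2 was dropped (7.57% of all genes lower), and 12 once dKO replicate 2 (7.85%) or dKO replicate 3 (9.39%) was. *Oasl1* stayed the member called higher with any 1 array left out. Results below are therefore given with single-array values.

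Checks of the samples were as follows. *Kdm6a* was 1.59-fold lower in dKO cells (log2 fold change -0.67, limma adjusted p = 2.6e-05), and *Kdm6b* differed by -0.09 on the same scale (adjusted p = 0.32). These rows summarise probes along whole transcripts, while Cre removes only part of either gene, so they do not measure the deletion. *Cd3e* and *Cd4* were bright in every array, at log2 values of 12.99 to 13.11 and of 12.11 to 12.32. Of 11 T-cell markers measured, none was higher and 3 were lower in limma, *Cd5* by -0.43, *Themis* by -0.24 and *Lat* by -0.15 on the log2 scale. Column medians were 6.27 to 6.32, and log2 values near these medians are called dim here, since the deposited table holds no detection call. Markers of DP thymocytes summed to 1543.7 to 1690.5 on the linear scale in wild-type and 2224.3 to 2501.0 in dKO arrays, with *Dntt* and *Cd8b1* higher and *Rag1* lower among 7 measured, and 2 of the 7 were below the column median in every array. Their part in the results on the members was not tested.

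All 4 interferon receptor chains were lower in dKO cells. The chain that binds interferon-γ, *Ifngr1*, had log2 values of 10.70, 10.83 and 10.78 on the wild-type arrays and of 10.06, 9.96 and 9.99 on the dKO arrays. The groups were separated by several times the spread within either, and *Ifngr1* was 1.70-fold lower in dKO cells (log2 fold change -0.77, standard error 0.05, limma adjusted p = 6.6e-06). The signalling partner *Ifngr2* read 11.51, 11.59 and 11.57 in wild-type and 11.47, 11.37 and 11.27 in dKO cells. Its groups did not overlap, but the gap between them was narrow. The log2 fold change of *Ifngr2* was -0.19 (standard error 0.06, limma adjusted p = 0.045), and it did not pass in 8 of the 15 alternative analyses, with an adjusted p of up to 0.15.

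The type I receptor chains were lower too. *Ifnar1* read 10.20, 10.14 and 10.25 in wild-type and 9.66, 9.74 and 9.72 in dKO arrays, with no overlap and with the narrower spread in the dKO group. It was 1.41-fold lower in dKO cells (log2 fold change -0.49, standard error 0.05, limma adjusted p = 7.2e-05). *Ifnar2*, the chain of the same receptor that holds Jak1 and Stat2, read 10.05, 10.05 and 9.98 in wild-type and 9.85, 9.64 and 9.70 in dKO cells. Each dKO array was below each wild-type array, and the log2 fold change was -0.29 (standard error 0.06, limma adjusted p = 0.0053). *Ifnar1* and *Ifngr1* were called under each of the 15 alternatives, and *Ifnar2* under each except Student's t-test.

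*Ifnar2*, *Il10rb*, *Ifnar1* and *Ifngr2* follow each other on chromosome 16. *Il10rb*, which encodes a chain of the receptors for interleukin-10 and interferon-λ, was also lower, with a log2 fold change of -0.32 (limma adjusted p = 7.2e-04). The 4 neighbours of this cluster were thus all called lower, by unequal amounts. *Ifngr1* lies elsewhere, on chromosome 10.

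The OAS family held both the deepest decrease and the increase among the members. These proteins bind double-stranded RNA, and the catalytic ones make 2′-5′ oligoadenylates that activate RNase L. *Oas3* read 8.63, 8.65 and 8.44 in wild-type cells and 7.81, 7.45 and 7.20 in dKO cells. All dKO arrays were well below the wild-type arrays, but they also differed from each other by 0.62, nearly 3 times the wild-type range of 0.21. The level of *Oas3* was 2.12-fold lower in the dKO group (log2 fold change -1.09, standard error 0.13, limma adjusted p = 2.3e-04).

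Its neighbour *Oas2* behaved alike, with 9.17, 9.17 and 9.12 in wild-type arrays and 8.54, 8.21 and 7.96 in dKO arrays. The wild-type arrays were nearly identical, the dKO arrays were spread below them, and the decrease was 1.89-fold (log2 fold change -0.92, standard error 0.12, limma adjusted p = 3.3e-04). *Oas1a*, which encodes a catalytic enzyme of the family, read 7.50, 7.42 and 7.53 against 7.34, 7.27 and 6.90. Its log2 fold change of -0.32 passed narrowly (limma adjusted p = 0.046) and did not pass without any 1 of the 6 arrays except dKO replicate 1. The *Oas1* genes resemble each other closely in sequence, and probes may be shared between them.

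The OAS-like genes *Oasl1* and *Oasl2* are direct neighbours on chromosome 5 and did not move together. *Oasl1*, whose product is known to restrain translation of Irf7, read 8.88, 8.76 and 8.56 in wild-type and 9.21, 9.14 and 9.06 in dKO cells. The dKO arrays were the higher in every case and lay close together, and *Oasl1* was 1.33-fold higher (log2 fold change 0.41, standard error 0.08, limma adjusted p = 0.0040). *Oasl2*, an antiviral gene that promotes RNA sensing, read 9.74, 9.50 and 9.37 against 9.73, 9.14 and 8.76. In *Oasl2* dKO replicate 1 was among the wild-type values and the other dKO arrays were below them, and the log2 fold change of -0.33 did not pass (standard error 0.20, limma adjusted p = 0.29). The difference between the neighbours was not tested.

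**Figure D2:**
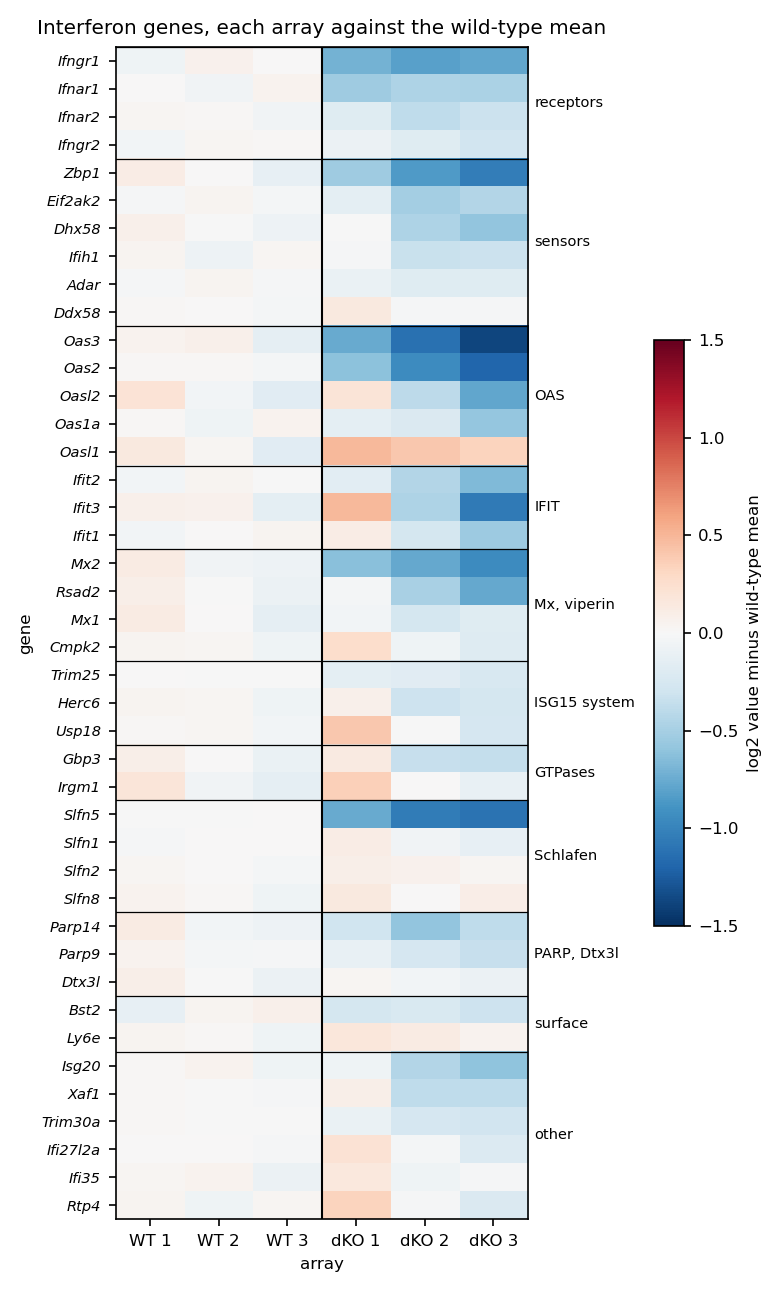
log2 value minus the wild-type mean of the gene, for each of the 42 measured members on each of the 6 arrays. The dKO replicate 1 array is the highest dKO array in 40 of the 42 members, and the dKO replicate 3 array is the lowest in 30.

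*Slfn5*, a Schlafen family gene linked to growth control, was 1.96-fold lower in dKO cells. Its wild-type values of 11.10, 11.09 and 11.11 differed by 0.02, and its dKO values of 10.34, 10.05 and 9.997 were all far below (log2 fold change -0.97, standard error 0.08, limma adjusted p = 2.4e-05). The other Schlafen members lie in the same cluster on chromosome 11 and did not pass. *Slfn1* had a log2 fold change of -0.02, *Slfn2*, which is needed for T-cell quiescence, one of 0.06, and *Slfn8* one of 0.09. Of the Schlafen genes in the list of further interferon-stimulated genes, *Slfn3* was lower (log2 fold change -0.54, limma adjusted p = 1.6e-04), and *Slfn4* and *Slfn9* did not pass, at 0.13 and -0.07. Members of this family are similar in sequence, so the assignment of their probes is uncertain.

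Among sensors and RNA-handling enzymes 3 of 6 were lower. *Zbp1*, a sensor of Z-form nucleic acid that can start necroptosis, read 10.76, 10.65 and 10.53 in wild-type and 10.11, 9.79 and 9.61 in dKO cells. The groups were clearly apart, and the decrease was 1.75-fold (log2 fold change -0.81, standard error 0.11, limma adjusted p = 6.0e-04). *Eif2ak2*, which encodes the RNA-activated kinase PKR, changed by -0.36 on the log2 scale (adjusted p = 0.010), and *Adar*, an RNA-editing enzyme, by -0.16 (adjusted p = 0.043). The cytosolic RNA sensor *Ddx58* (RIG-I) differed by 0.04 (adjusted p = 0.72). The related *Dhx58* and *Ifih1* (MDA5) had values of -0.35 and -0.22, with adjusted p-values of 0.076 and 0.081, and both were called without dKO replicate 1.

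*Mx2*, a dynamin-like GTPase against viruses, was dim, with log2 values of 6.39, 6.22 and 6.20 in wild-type and 5.64, 5.50 and 5.33 in dKO cells. It was nevertheless 1.72-fold lower without overlap (log2 fold change -0.78, standard error 0.08, limma adjusted p = 1.1e-04). *Mx1* lay at similar dim levels and differed by -0.16 on the log2 scale (adjusted p = 0.17). *Mx2*, *Oas2*, *Oas3*, *Slfn5*, *Ifnar1* and *Ifngr1* were the 6 members called under every alternative in which they were tested, which was 14 for *Mx2*, too dim for the brightest 50% of genes, and 15 for the others.

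*Rsad2*, which encodes viperin, and its neighbour *Cmpk2*, a mitochondrial nucleotide kinase, are often induced together. *Rsad2* read 8.49, 8.40 and 8.31 in wild-type and 8.38, 7.91 and 7.64 in dKO cells. dKO replicate 1 fell within the wild-type range and the others below it, and the log2 fold change of -0.43 did not pass (standard error 0.15, limma adjusted p = 0.067). *Cmpk2* had equal means in both genotypes (log2 fold change 0.00, adjusted p = 0.99), from 8.17, 8.17 and 8.07 in wild-type and 8.40, 8.08 and 7.94 in dKO arrays. Its dKO values thus lay on both sides of the wild-type values.

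The IFIT genes encode proteins that bind foreign RNA ends. *Ifit3* was the member with the widest spread between dKO arrays, and ranked 2 of 19752 genes by this range. Its log2 values were 9.20, 9.18 and 8.97 in wild-type and 9.60, 8.65 and 8.05 in dKO cells. One dKO array was thus above all wild-type arrays and the other two below them, over a range of 1.54 against 0.23 in wild-type. The log2 fold change of -0.35 had a standard error of 0.29 (limma adjusted p = 0.47), turned to 0.01 without dKO replicate 3, and reached -0.76 with an adjusted p of 0.0087 without dKO replicate 1.

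*Ifit1* showed the same arrangement on a smaller scale, with 10.72, 10.77 and 10.80 in wild-type and 10.87, 10.50 and 10.21 in dKO cells, and did not pass (log2 fold change -0.24, limma adjusted p = 0.25). *Ifit2* read 8.66, 8.74 and 8.70 against 8.54, 8.26 and 8.04. It was the IFIT gene whose groups did not overlap, and it was lower by the test (log2 fold change -0.42, limma adjusted p = 0.015). *Ifit3* has a close copy in the mouse genome, *Ifit3b*, and the signal of its probes may include that copy.

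Of the ISG15 conjugation system, *Trim25*, a ubiquitin ligase that acts on RIG-I, was lower by 0.18 on the log2 scale in an unusually even set of arrays (9.93 in each wild-type array and 9.78, 9.76 and 9.69 in dKO arrays; limma adjusted p = 0.016). *Usp18*, the protease that removes ISG15 and inhibits Ifnar2 signalling, read 10.35, 10.37 and 10.29 in wild-type and 10.74, 10.33 and 10.08 in dKO arrays. Its dKO arrays lay above, within and below the wild-type values, and its log2 fold change was 0.05 (adjusted p = 0.85). *Herc6*, the mouse ISG15 ligase, differed by -0.17 (adjusted p = 0.25).

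*Parp14* and *Parp9*, ADP-ribosyltransferases, were lower with log2 fold changes of -0.42 (adjusted p = 0.0039) and -0.23 (adjusted p = 0.023). *Dtx3l*, the partner of Parp9 that lies between them in the genome, differed by -0.03 (adjusted p = 0.77). Of the surface proteins, *Bst2* (tetherin) was lower, from 7.70, 7.87 and 7.90 to 7.56, 7.60 and 7.51 (log2 fold change -0.27, limma adjusted p = 0.010). *Ly6e* read 12.53, 12.51 and 12.43 in wild-type and 12.66, 12.61 and 12.55 in dKO cells. The groups of *Ly6e* did not overlap, but its log2 fold change of 0.12 did not pass (adjusted p = 0.16).

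The remaining members were mixed. *Isg20*, an exonuclease, was lower with a log2 fold change of -0.37 (adjusted p = 0.038), although dKO replicate 1 and wild-type replicate 3 both read 10.34. *Trim30a*, a regulator of inflammatory signalling, was lower with a value of -0.21 (adjusted p = 0.022). *Xaf1*, *Ifi27l2a*, *Ifi35* and *Rtp4* did not pass, with log2 fold changes between -0.22 and 0.03. The interferon-γ-inducible GTPases *Irgm1* and *Gbp3*, which act on intracellular pathogens, did not pass either, at 0.09 and -0.19.

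Of the 20 members called, 12 were called under every alternative other than Student's t-test. The 8 others were *Isg20*, *Ifit2*, *Oas1a*, *Trim30a*, *Trim25*, *Parp9*, *Adar* and *Ifngr2*, each of which did not pass with at least 1 array left out. The 9 members that gained a call when dKO replicate 1 was left out were *Ifit1*, *Ifit3*, *Oasl2*, *Rsad2*, *Xaf1*, *Dhx58*, *Ifih1*, *Gbp3* and *Herc6*, and some of them were also called under other alternatives.

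The members varied together between arrays of the same genotype. Over the members, the median range across the 3 dKO arrays was 0.33 on the log2 scale, and that across the 3 wild-type arrays was 0.11. Over all genes the medians were 0.12 and 0.11. The dKO range was the wider in 35 of 42 members (83.3%), against 51.9% of all genes. It was over 0.5 in 12 members, against 109 of 19752 genes (0.552%), and the wild-type range was over 0.5 in none of the members.

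**Figure D3:**
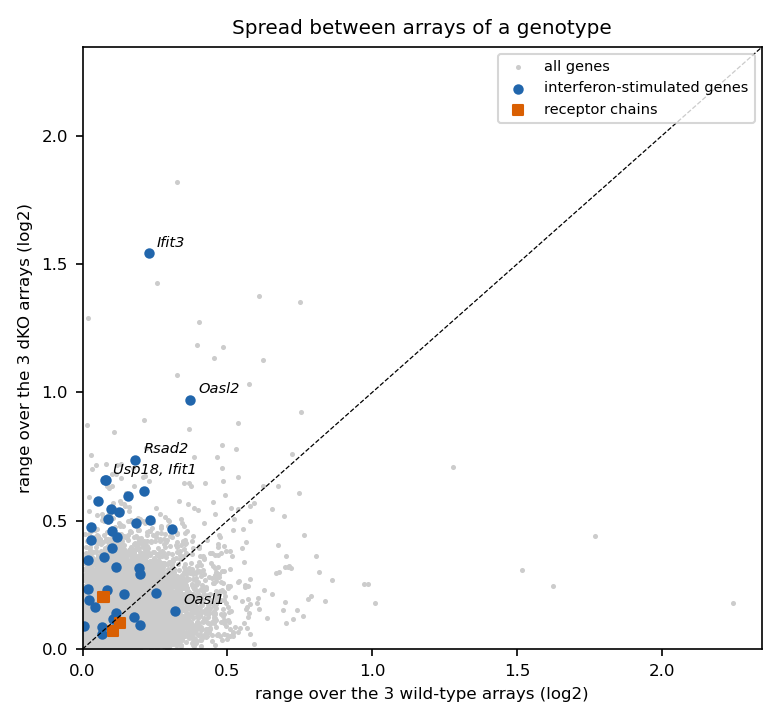
Range over the 3 dKO arrays against range over the 3 wild-type arrays, in log2 units, for all genes and for the 42 measured members. *Ifit3* has the widest dKO range of the members at 1.54, and the members have a median dKO range of 0.33 against a median wild-type range of 0.11.

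The arrays stood in the same order in most members. dKO replicate 1 was highest and dKO replicate 3 lowest, with dKO replicate 2 between, in 29 of 42 members (69.0%), against 3315 of 19752 genes (16.8%). The exceptions to dKO replicate 1 as the highest dKO array were *Ifnar1* and *Bst2*. As a median over the members, dKO replicate 1 was 0.02 below the wild-type mean, dKO replicate 2 was 0.26 below and dKO replicate 3 was 0.32 below. In 10 members (23.8%, against 11.7% of all genes) the dKO arrays lay on both sides of all the wild-type arrays. These 10 were *Ifit1*, *Ifit3*, *Usp18*, *Ifi27l2a*, *Xaf1*, *Rtp4*, *Slfn1*, *Gbp3*, *Herc6* and *Cmpk2*.

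A smaller order was seen among wild-type arrays. Wild-type replicate 1 was the highest in 26 members (61.9%, against 34.2% of all genes) and wild-type replicate 3 the lowest in 29 (69.0%, against 35.7%). In 17 members (40.5%) the arrays of both genotypes stood in the order of the member medians, against 893 of all genes (4.52%). Of the 100 genes with the widest range across dKO arrays, 10 were members, and 5 more were in a list of 67 further interferon-stimulated genes.

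The receptor chains varied less between the dKO arrays. The ranges of *Ifnar1* and *Ifngr1* across the dKO arrays were 0.07 and 0.10, those of *Ifnar2* and *Ifngr2* were both 0.20, and 1 of the 4 chains had the order of dKO replicates 1, 2 and 3. Of the 38 interferon-stimulated genes, 28 had that order (73.7%), including all 5 OAS and all 3 IFIT genes. In terms of sequence, the 14 members with an ISRE core in the window had a median dKO range of 0.40 and a median log2 fold change of -0.25. The 17 with a window but no ISRE core, all 4 receptor chains among them, had medians of 0.20 and -0.18. dKO replicate 1 was the highest dKO array in 13 of the 14 and in 16 of the 17. For the GAS letters the dKO range went the other way. The 9 members with them had medians of 0.22 and -0.32, and the 22 without had 0.33 and -0.19. These values are descriptions without a test, and *Oasl2*, with a dKO range of 0.97, was among the members without the ISRE core.

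Some markers of other cell types and stages stood in the same order of arrays and others did not. Of all genes, 16.8% had the dKO order of the members. Of T-cell markers, 2 of 11 had it, and of B-cell markers 1 of 7. The order was found in 0 of 8 thymic epithelial markers, 1 of 7 NK and innate lymphoid markers and 1 of 3 erythroid markers. Of the 7 DP thymocyte markers, 5 (71.4%) had the dKO order of the members, which were *Dntt*, *Rag1*, *Rag2*, *Ptcra* and *Cd24a*. Of 8 neutrophil markers, all 8 below the column median in every array, 3 had this order, 2 were called higher and 0 lower. Among these, *Ngp* had the order and was higher (log2 fold change 0.62, limma adjusted p = 0.023). *Cd74*, the invariant chain of MHC class II, had log2 values of 6.83, 6.62 and 6.22 in wild-type and 7.73, 7.04 and 6.36 in dKO cells. *H2-Aa* and *H2-Ab1*, which encode MHC class II chains, showed the order too, and *Lyz2*, the lysozyme of myeloid cells, read 5.35, 5.43 and 5.03 against 6.75, 6.02 and 5.48 (log2 fold change 0.81, limma adjusted p = 0.043). Of 12 macrophage and monocyte markers, 5 had the dKO order of the members, and dKO replicate 1 was the lowest dKO array in 5 others. The order was fully reversed in *Cd68*, *Csf1r*, *Fcgr1* and *Vsig4*. Of the 12, 9 were below the column median in every array, and 1 was called higher, *Lyz2*. The 1 called lower was *Cd68* (log2 fold change -0.31, limma adjusted p = 0.0032). The sum of the 12 on the linear scale was 559.5 to 580.1 in wild-type and 550.4 to 619.4 in dKO arrays, and *Csf1r* lay between 5.37 and 5.53 in all arrays.

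Of 13 dendritic cell markers, 5 had the order, 7 were below the column median in every array, and 1 was called lower, which was *Bst2*, itself a member, and 1 higher. Their sum was 2955.7 to 3510.4 in wild-type and 3514.4 to 4331.6 in dKO arrays. Most of this sum came from *Ccr9*, the brightest gene of the list. It read 10.96, 11.09 and 11.32 in wild-type and 11.57, 11.27 and 11.27 in dKO arrays (limma adjusted p = 0.12). The defining markers *Itgax*, *Xcr1*, *Clec9a* and *Siglech* lay between 3.99 and 5.85 in all arrays. *Tcf4*, a factor of plasmacytoid dendritic cells, was the list's higher gene, averaging 7.69 on wild-type arrays and 8.37 on dKO arrays, dKO replicate 1 being the lowest dKO array (log2 fold change 0.68, limma adjusted p = 9.8e-05). The part of such cells in the spread of the members was not tested.

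**Figure D4:**
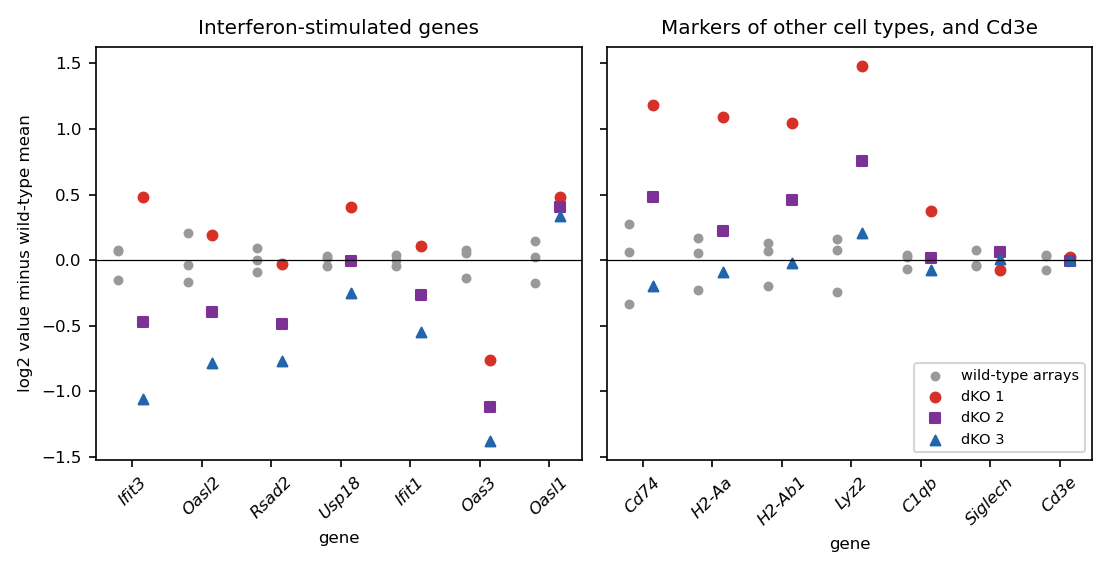
log2 value minus the wild-type mean on each of the 6 arrays, for 7 members on the left and for *Cd74*, *H2-Aa*, *H2-Ab1*, *Lyz2*, *C1qb*, *Siglech* and *Cd3e* on the right. dKO replicate 1 is the highest dKO array for *Ifit3* at 9.60 and for *Lyz2* at 6.75, and *Siglech* and *Cd3e* differ little between arrays.

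The interferon genes themselves were mostly dim. None of 15 measured interferon genes was called in either direction, none had an unadjusted p under 0.05 in limma, where the lowest was 0.051, and 1 did in Student's t-test. *Ifng* averaged 5.35 in wild-type and 5.36 in dKO cells, below the column medians. Interferon made by other cells of the thymus is outside what these sorted samples measure.

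Between the receptors and the responding genes, 2 of 6 measured genes of JAK-STAT signalling were lower (33.3%, against 10% of all genes) and 0 higher. *Tyk2*, the kinase of Ifnar1, had a log2 fold change of -0.20 (limma adjusted p = 0.029), and *Stat2* one of -0.23 (limma adjusted p = 0.013). *Jak1*, the kinase of Ifnar2 and Ifngr1, and *Jak2*, that of Ifngr2, had values of -0.01 and 0.00, and *Irf9* had -0.04. The order of dKO replicates 1, 2 and 3 was found in 2 of the 6, *Stat2* and *Irf9* (33.3%, against 16.8% of all genes). *Irf7*, which amplifies the type I response, read 10.32, 10.28 and 10.23 in wild-type and 10.78, 10.50 and 10.15 in dKO cells (log2 fold change 0.20, limma adjusted p = 0.32).

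Of 9 other interferon regulatory factor genes, 3 were lower (33.3%) and 2 higher (22.2%), against 10% and 13.1% of all genes. The order of dKO replicates 1, 2 and 3 was found in 6 of the 9 (66.7%), *Irf7* among them. *Irf1*, the main early target of interferon-γ, read 10.33, 10.22 and 10.16 in wild-type and 9.97, 9.84 and 9.68 in dKO cells, without overlap, with a log2 fold change of -0.41 (limma adjusted p = 0.0032). *Irf4*, a factor induced by antigen receptor signals, fell by 1.94 on the log2 scale, and *Irf8* by 0.35. The corepressor genes *Irf2bp1* and *Irf2bp2* were higher by 0.35 and 0.17 on the log2 scale.

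Negative regulators of cytokine signalling were lower in 4 of 10 cases (40.0%, against 10% of all genes) and higher in none (13.1% of all genes). *Socs1*, the chief inhibitor of both interferon receptors and itself induced by interferon, read 9.29, 9.30 and 9.25 in wild-type and 8.73, 8.76 and 8.71 in dKO arrays. Each group spanned about 0.05, with no order like that of the members, and *Socs1* was 1.46-fold lower (log2 fold change -0.55, limma adjusted p = 2.1e-05). *Cish* fell by 1.03, *Socs3* by 0.35 and *Ptpn1* by 0.18 on the log2 scale. Of 7 other class II cytokine receptor chains 2 were lower (28.6%, against 10% of all genes) and 0 higher. The 2 lower chains were *Il10ra*, which fell by 2.80 on the log2 scale, and *Il10rb*, which fell by 0.32.

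**Figure D5:**
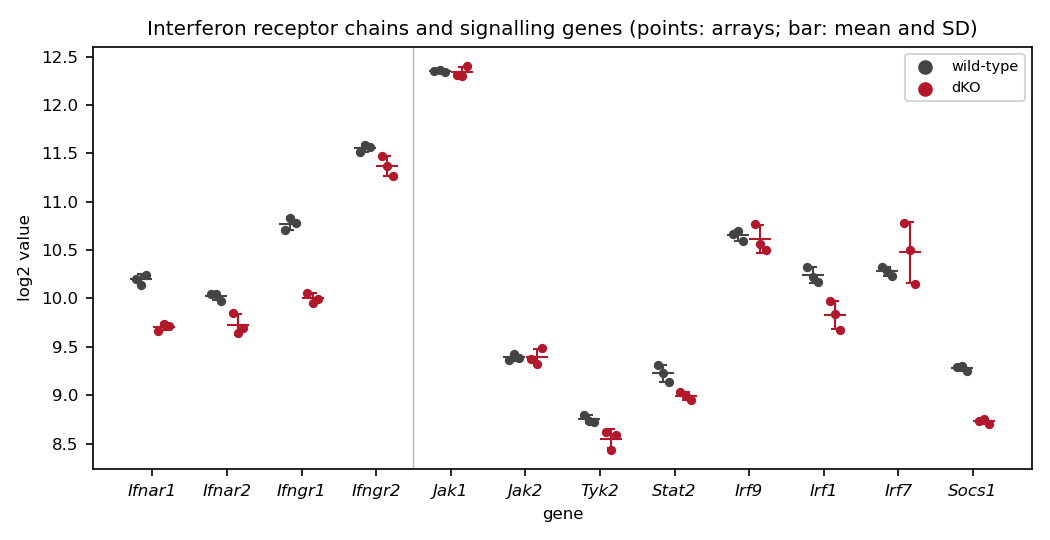
log2 values of single arrays (points), with group means and SD over 3 arrays (bars), for the 4 receptor chains and genes of their signalling path. The wild-type and dKO arrays do not overlap for any receptor chain or for *Socs1*, while *Jak1* and *Jak2* overlap.

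Of 13 genes that act before interferon production, 7 were lower (53.8%) and 1, the dim *Tlr3*, higher (7.69%). Of all genes 10% were lower and 13.1% higher, and 5 of the 13 were not called. *Samhd1*, a dNTP hydrolase that limits nucleic acid sensing, fell by 2.11 on the log2 scale (limma adjusted p = 5.6e-07). *Tlr7*, a receptor for RNA in endosomes, fell by 1.05 and *Ikbke*, a kinase of Irf3 and Irf7, by 0.67. *Sting1*, the adaptor of cytosolic DNA sensing, fell by 0.60 and *Myd88*, the adaptor of most Toll-like receptors, by 0.25.

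A wider list of 67 further interferon-stimulated genes had 23 lower (34.3%, against 10% of all genes), with a median log2 fold change of -0.10. In this list 6 were higher (8.96%), a smaller share than the 13.1% of all genes. *Rnf213*, a large ubiquitin ligase, fell by 0.97 (limma adjusted p = 4.5e-05), *Ms4a4c* by 1.05 and *Nlrc5*, the transactivator of MHC class I genes, by 0.84 on the log2 scale. *Oas1b* fell by 0.55. The 6 higher genes were *Lap3*, *Parp12*, *Cd69*, *Sco1*, *Tor3a* and *Tdrd7*, with log2 fold changes from 0.18 to 0.68. The authors measured *Cd69* mRNA by RT-PCR in sorted cells of this type and reported similar amounts in both genotypes. On the arrays *Cd69* was called higher in limma and under each of the 15 alternatives except Student's t-test (adjusted p = 0.084). Its log2 fold change was 0.23 to 0.33 with 1 array left out. Of the 67, 30 showed the order of the dKO arrays (44.8%, against 16.8% of all genes). The 127 measured genes of all these lists had 41 lower (32.3%, against 10% of all genes) and 9 higher (7.09%, against 13.1%).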

How the data were processed

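RNA of sorted OT-II CD4 SP thymocytes was measured on 6 arrays, 3 wild-type and 3 dKO. According to the Methods the authors used Affymetrix Mouse Gene 1.0 ST arrays, while the design text names another array type. Partek and RMA are listed in the submitters' processing notes without versions. The deposited values are log2 expression, normalized by the authors between arrays and summarized to 1 value per row. RMA evens out the distributions of arrays and compresses differences of dim genes, and a level of one gene cannot be set against that of another. There are no read counts, so the number of arrays limits the precision.

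Of 25254 rows, 21496 had 1 gene symbol, 1565 several and 2193 none. A RefSeq table (GRCm38.p6) gave current symbols through Entrez identifiers and matched 21415 rows, and 81 rows kept the symbol of the annotation. For the 938 genes with more than 1 row the brightest by mean was used, leaving 19752 genes. Values were tested with limma 3.58.1 in R 4.3.3, genotype as the only term, with no filter, by 2-sided moderated tests with p-values adjusted over all 19752 genes (Benjamini-Hochberg, threshold 0.05). The script was tested on simulated data. Ranges, orders and medians over lists are descriptions. Promoter windows were RefSeq sequences searched in Python 3.11.15, and figures were drawn with matplotlib 3.10.9.

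The members, the other gene lists and the tests were chosen with earlier results of these data known. Members named with single-array values were the receptor chains, the largest changes and spreads, and at least 1 of each role. Genes of other lists were named if called, up to 5 a list by p, beside *Jak1*, *Jak2*, *Tyk2*, *Stat2*, *Irf9*, *Irf1*, *Irf7* and *Socs1*. *Cd74*, *H2-Aa*, *H2-Ab1*, *Lyz2*, *C1qb*, *Slfn3*, *Slfn4*, *Slfn9*, *Ms4a4c*, *Oas1b* and the other named markers came from fixed lists and were picked from them after their values were seen, as were *Tlr3*, *Ifng* and the 6 further genes called higher. No batch is given in the labels. Alternatives were quantile and cyclic loess normalization of the values again, the brightest 75% or 50% of genes, averaging the rows of a gene, robust variances with an intensity trend, array weights, a block for the replicate number, Student's t-test and each array left out in turn. Rows with several symbols were left out of the tests.

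Marker lists also covered B cells, thymic epithelium, NK and innate lymphoid cells, erythroid cells and neutrophils. On the linear scale their sums ran, in that order, from 358.8 to 365.5, 938.1 to 975.1, 209.5 to 214.0, 158.3 to 175.2 and 272.8 to 296.3 in wild-type arrays, and from 309.9 to 317.1, 845.7 to 878.4, 200.7 to 204.6, 164.7 to 174.5 and 301.0 to 329.4 in dKO arrays. The T-cell list summed to 40392.2 to 42627.9 and 41137.2 to 41261.4. Of 7 B-cell markers, 6 were below the column median in every array, and 1, *Cd79b*, was called lower (log2 fold change -0.63, limma adjusted p = 1.2e-05). Of 8 thymic epithelial markers, *Ccl25* and *Ly75* were called lower and *Epcam* higher. The part of other cells in these sums was not tested.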

Additional observations from a re-analysis of the deposited data

How the results depend on the processing

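The members called lower were 19, and between 16 and 23 under all alternatives except Student's t-test, which gave 7, and arrays left out, which gave 11 to 28. Members called higher were 1, rising to 2 with an intensity trend and robust variances (*Ly6e* added) and 0 with Student's t-test, where 1 was higher at an unadjusted p under 0.05. The count of members with all dKO arrays below ran from 18 to 31 with 1 array left out, with 19.7% to 21.8% of all genes. Other pathway genes called lower were 25 with Student's t-test, and those called higher were 5 with cyclic loess, 4 with Student's t-test and 4 to 8 with 1 array left out. Deviations of same-numbered arrays correlated weakly, at 0.099, 0.024 and 0.070. These values do not settle whether the replicate numbers pair the samples, since a weak correlation can miss pairing that affects few genes. In 17 of 42 members (40.5%) the arrays of both genotypes stood in the order of their replicate numbers, against 4.52% of all genes. Pairing was not tested further. With the replicate number as a block 21 members were lower and 1 higher.

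Log2 fold changes near 0 turned sign in a few genes. After quantile normalization again they were 0.0322 for *Ifi27l2a*, -0.0029 for *Ifi35*, 0.0253 for *Slfn1*, -0.032 for *Cmpk2* and -0.03 for *Jak2*. After cyclic loess they were -0.0185 for *Ifi35*, -0.0464 for *Cmpk2*, 0.0048 for *Jak1* and -0.0356 for *Jak2*, and with array weights -0.03 for *Ifi35*, -0.0325 for *Cmpk2* and -0.0323 for *Jak2*. With 1 array left out the range was -0.76 to 0.0066 for *Ifit3*, -0.13 to 0.20 for *Usp18*, -0.11 to 0.097 for *Ifi27l2a*, -0.0431 to 0.0648 for *Ifi35*, -0.12 to 0.16 for *Rtp4*, -0.0871 to 0.0306 for *Slfn1*, -0.0176 to 0.0648 for *Ddx58*, -0.0502 to 0.18 for *Irgm1*, -0.0758 to 0.0134 for *Dtx3l*, -0.13 to 0.10 for *Cmpk2*, -0.046 to 0.0046 for *Jak1*, -0.0441 to 0.0415 for *Jak2* and -0.12 to 0.0153 for *Irf9*. The cause of these changes was not tested. Dim genes such as *Mx2* and the interferon genes lie where RMA compresses differences.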

Other observations

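Members that share a row with a second gene were read as rows. The row of *Irgm2* and *Igtp*, interferon-γ-inducible GTPases, had log2 values of 9.56, 9.49 and 9.29 in wild-type and 9.27, 8.96 and 8.85 in dKO arrays, a difference of -0.42 with the dKO arrays below the wild-type arrays. The row of *Gbp2* and *Gbp2b* read 10.33, 10.26 and 10.10 against 10.44, 10.12 and 9.95, and the arrays of both genotypes stood in the order of the members. The row of *Isg15* and *Gm9706* was dim, with 5.34, 5.41 and 5.29 against 5.55, 5.37 and 5.29. The row of *Olfr56* and *Ifi47* differed by -0.04. These rows were not tested.

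Genes outside the lists with the order of the members in both genotypes and the widest spread were *Gbp2b*, *Eps8l1*, *Cdk5rap1*, *Trgv1*, *Vaultrc5*, *Mid1*, *Lynx1*, *Snora31*, *Snora73b* and *Ccna2*. *Gbp2b*, another interferon-inducible GTPase, led them on a row of its own, with 7.38, 7.20 and 7.06 in wild-type and 7.62, 6.70 and 5.81 in dKO arrays. The small nucleolar RNA *Snora73b* read 11.10, 10.92 and 10.56 against 11.78, 11.39 and 11.11. The genes were chosen for this order, which is therefore no result about them.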
